A study of Mus musculus with 56 samples.

Results

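The genes described here are 52 genes of DNA damage sensing and repair, from the kinases that detect broken DNA to the enzymes of each repair pathway, measured in mouse blood after injection of the beta emitter 90Sr. They were taken by gene symbol from a list of names drawn up with earlier results of these data known, no measured value entering the choice of a gene, and 52 of 52 were on the array, among 30199 genes in all. A probe with a uniform spot above background on over 75% of the arrays was found for 46 of them, and these 46 are called the measured genes. The other 6, Prkdc, Brca1, Rad54l, Xrcc3, Ercc6 and Fancg, are described with their own pathways and are in no count of changes. The sorting of the genes into 8 pathways followed general knowledge, and several of them work in more than 1.

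The study profiled whole blood of C57BL/6 mice, about 10 to 12 weeks old on arrival, that received 200 kBq of 90Sr intravenously in the tail vein, and of control mice, with no genetic change in either group. Blood was collected at day 4 after injection from 4 mice of either group and at days 7, 9, 25 and 30 from 6 of either group, so that 28 90Sr-injected mice were compared with 28 control mice on 56 one-color arrays. Each day had control mice of its own. Whole blood is a mixture of cells, and in such bulk samples fewer cells of a type and less RNA per cell cannot be told apart.

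Levels are given as log2 of the processed signal minus the median of the same array, so that a level of 1 is 2-fold above the array's median spot, and changes are 90Sr minus control on that scale. Of the control arrays 17809 to 24698 spots were well above background, against 14389 to 22524 of the 90Sr arrays. At day 4 each group lay on a slide of its own, so that slide and group cannot be told apart there, while at each later day 1 slide held 2 arrays of either group. The remaining arrays of the later days lay on slides that held a single group. At days 7 and 30, the slide that held 90Sr arrays only was also scanned on another day than all control arrays. The array of control mouse 4 at day 30 stood apart before any comparison: its median over the measured genes was 1.11, against 1.65 to 1.85 in the other 5 control mice of that day, with B cell markers summing to 907.5 against 1432 to 2012. Calls of genes at day 30 that change without it are given with both values.

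Cells meet a broken DNA double strand with the Mre11-Rad50-Nbn complex and the kinase Atm, and single-stranded DNA with the kinase Atr. Histone H2AX around the break is phosphorylated, ubiquitin ligases mark the chromatin, and the ends are joined directly or repaired by copying the sister chromatid. Damaged bases, bulky lesions, mispaired bases and cross-links are each removed by a pathway of their own, named base excision, nucleotide excision, mismatch and Fanconi anemia repair.

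Some probe sequences are shown first because the direction of the change depended on them. Every probe has 60 bases, and the first 30 are given, 5′ to 3′. For Atr, Msh3 and Neil1, the probe with the highest mean, which represented the gene, is followed by the second probe of the same gene, and positions are those of the array design on mm9. The probe of Atr used here lies at chr9:95804322-95804381 and was designed to a cDNA clone, while the second, at chr9:95851956-95852015, targets a RefSeq transcript. Those of Msh3, both to RefSeq transcripts, lie at chr13:92981875-92981934 and chr13:93019783-93019842. Those of Neil1 lie at chr9:56990628-56990687, designed to a clone, and at chr9:56991288-56991347, to a RefSeq transcript. The probe of Ung, at chr5:114588731-114588790, is shown by its bases 31 to 60, in capitals because every one of them belongs to a GT repeat.
Atr, probe used: tgcctgctggtaagcatgaagattggagtt
Atr, second probe: tgaaggacatgtgcattacctcatacaaga
Msh3, probe used: gtgtgaagggctaaatgtcgtcatcttttt
Msh3, second probe: tatgattgatgtgttgctgggtgaacaaga
Neil1, probe used: ctcccaaagtgttggaaatgtaagccatct
Neil1, second probe: aacagtctgaaggggccggcctccaacaaa
Ung, bases 31 to 60: GTGTGTGTGTGTGTGTGTGTGTGTGTGTGT

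Across the 5 days, most repair genes were lower in the 90Sr-injected mice. Averaged over the 5 daily differences in limma, 35 of the 46 measured genes fell and 7 rose at a Benjamini-Hochberg adjusted p under 0.05 over all genes tested, while 4 did neither. Among all 18801 genes tested, 40.0% were lower and 43.2% higher by the same rule. The median change was −0.78 for the repair genes and 0.08 for all genes. The largest falls were those of Parp1, which binds DNA breaks and signals them with chains of ADP-ribose (−1.90 ± 0.144 SE, 3.74-fold), of the ubiquitin ligase Rnf168 (−1.75 ± 0.182), of the nuclease gene Ercc4 (−1.66 ± 0.144) and of Msh3 of mismatch repair (−1.63 ± 0.130). The genes that rose were Atr, Fancd2, Chek1, Ung, Chek2, Xpa and Blm, by 0.95 to 0.23, of which Atr fell on its other probe. With arrays centered on their median, spots at background also had positive changes. Every probe of the repair genes that was well above background on no array did so, by 0.37 to 0.88. Chek1 and Fancd2 were well above background on 19 arrays each, and how much of their rises reflects such a shift was not tested.

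The scale of the arrays shifts every gene together and so decides how many genes fall on either side of 0. With arrays centered on their 75th percentile, the median of all genes moved up by 0.38, the repair genes had a median of −0.40, and 28 fell and 11 rose, beside 30.0% lower and 58.9% higher of all genes. After quantile normalization 32 fell and 8 rose, beside 37.8% and 43.3% of all genes. Centering moves all genes alike, so the distance to the median of all genes is the same on the first 2 scales by construction: the median of the repair genes lay 0.86 below it, and 37 of the 46 genes were below it. H2afx, Xrcc4, Xrcc6 and Ercc5, which fell on the array median scale, had changes of 0.11, 0.12, 0.02 and 0.03 on the 75th percentile scale, and their direction is therefore not settled.

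**Figure D1:**
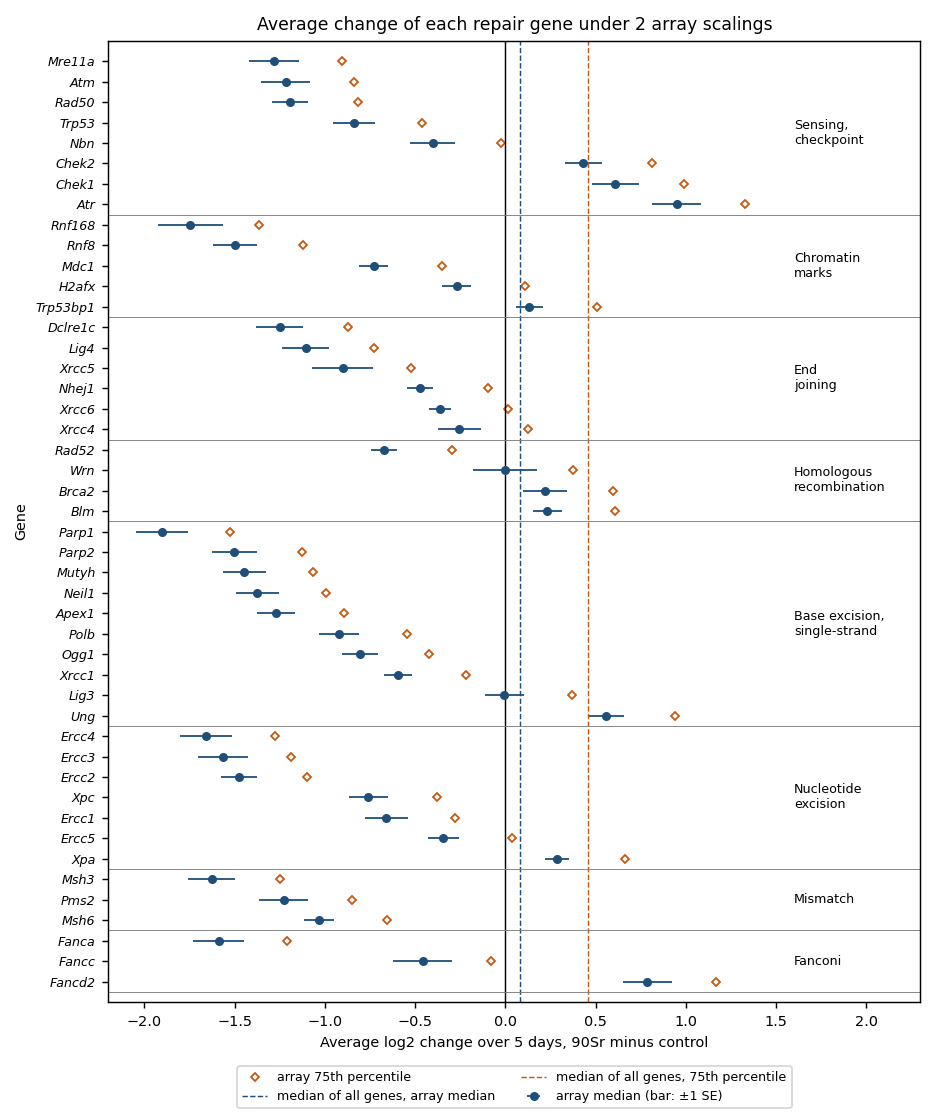
Average log2 change over the 5 days, 90Sr minus control, of the 46 measured repair genes grouped by pathway. Filled circles with bars are the change ± 1 SE with arrays centered on their median, open diamonds the change with arrays centered on their 75th percentile, and dashed lines the median of all genes on each scale. Parp1 lies furthest to the left at −1.90, and the diamonds are shifted by about 0.38 to the right throughout.

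Day by day, genes were called at an unadjusted p under 0.001 with at least a 2-fold change, each day tested by itself. At day 4, 18 of the 46 were called lower, against 17.4% of all genes, and 0 higher, against 2.14%. At day 7, 15 were lower and 1 higher, where all genes gave 12.0% and 2.59%. At day 9, 11 were lower and 1 higher, beside 13.7% and 4.42%. At day 25 the numbers were 22 and 0, beside 19.8% and 5.70%, and at day 30 they were 20 and 2, beside 16.1% and 15.5%. The median change of the repair genes was −0.77, −0.74, −0.56, −0.99 and −0.86 in order of day, where that of all genes lay between −0.10 and 0.12. On this scale day 9 had the median nearest to 0 and the fewest calls of the 5 days. With arrays centered on their 75th percentile, the calls lower and higher were 11 and 0, 3 and 2, 5 and 4, 12 and 4, and 17 and 3 in order of day, so that day 7 had the fewest. Without 90Sr mouse 6, 10 genes in all were called at day 7 in place of 16. Without control mouse 4, 21 were called lower and 1 higher at day 30.

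Parp1, Dclre1c, Rnf8, Msh3, Ercc4, Ercc2 and Fanca were called lower at all 5 days, which 6.31% of all genes were. Parp1, Msh3 and Ercc2 kept the call at each day when any 1 array of the day was left out. The call was lost in 9 of 12 such fits for Rnf8 at day 7 and 3 of 12 at day 9, in 7 of 12 for Fanca at day 9, in 3 of 12 for Ercc4 at day 7, and for Dclre1c in 6 of 8 at day 4, 3 of 12 at day 7, 1 of 12 at day 9 and 2 of 12 at day 30. With arrays centered on their 75th percentile, Parp1 alone of these 7 genes was called at all 5 days. In all, 18 of the genes were called at 3 or more days (16.6% of all genes) and 30 at 1 or more (48.3% of all genes). Every 90Sr-injected mouse lay below every control mouse of its day for 27, 24, 13, 26 and 18 of the 46 in order of day, beside 32.2%, 23.7%, 18.5%, 27.6% and 13.3% of all genes, and above for 2, 1, 2, 1 and 1, beside 18.2%, 8.46%, 5.24%, 7.81% and 15.1%. On the array median scale, the median over the measured genes within each mouse separated the groups at every day. It ran from 1.11 to 2.26 in the control mice and from 0.54 to 1.53 in the 90Sr-injected mice. Centering on the 75th percentile shifts each mouse by its own amount, and the groups then overlapped at days 9 and 25.

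**Figure D2:**
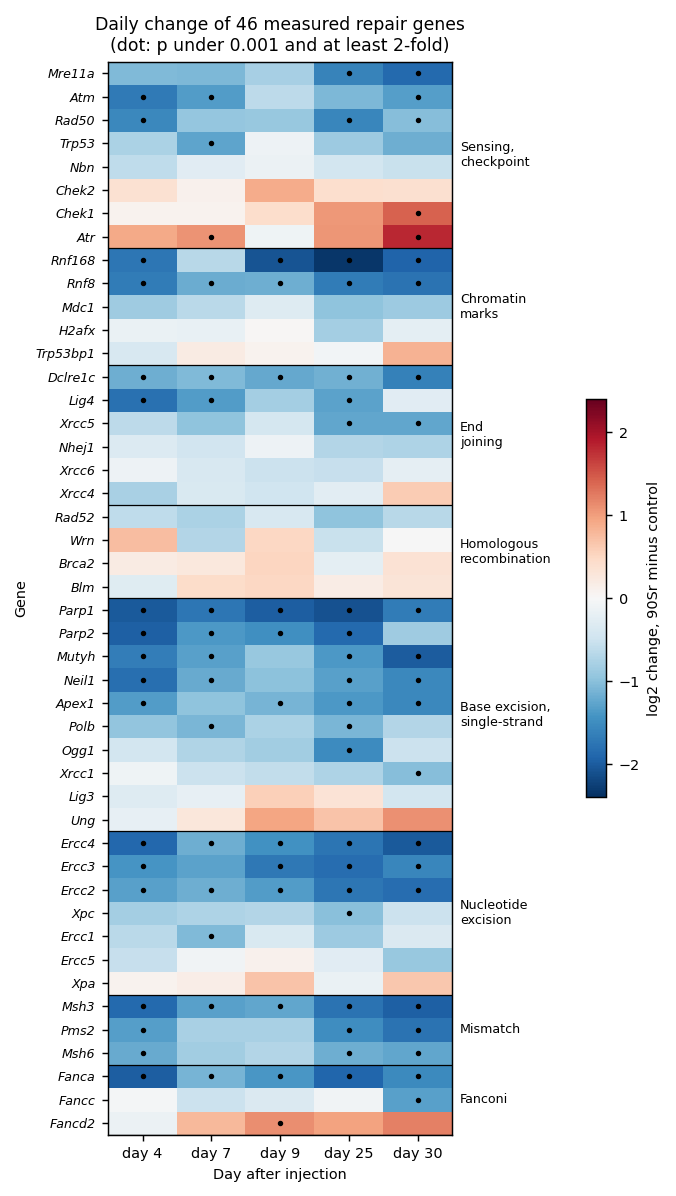
Log2 change of the 46 measured repair genes (rows, by pathway) at each day after injection (columns), 90Sr minus control; blue is lower and red higher in 90Sr-injected mice, and a dot marks a p under 0.001 with at least a 2-fold change. Parp1, Dclre1c, Rnf8, Msh3, Ercc4, Ercc2 and Fanca carry a dot in all 5 columns, and no gene of homologous recombination carries one.

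The calls by day depended on how the comparison was made. With the slide as a fixed block, so that the comparison rests on slides that held both groups, 12, 3, 0 and 1 of the genes were called at days 7, 9, 25 and 30, and on signals corrected by normexp with an offset of 50 there were 0 calls at each of the 5 days. That offset is added to every signal and shrinks the changes of dim probes, so a 2-fold change was harder to reach. On the same signals 31 of the 46 genes fell on average and 2 rose. Within the 4 slides that held both groups, 35 of the 35 genes that fell had a negative mean difference, 33 of them on all 4 slides. The 7 of 7 that rose had a positive one, 4 of them on all 4. The arrays of these slides also entered the fit that sorted the genes, so this agreement is partly fixed in advance and is no separate support.

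The pathways differed in how many of their measured genes fell, where 40.0% of all genes did. In mismatch repair 3 of 3 fell, with a median change of −1.23, in base excision and single-strand break repair 8 of 10 (median −1.10), in nucleotide excision repair 6 of 7 (−0.76), among the chromatin marks 4 of 5 (−0.73), in end joining 6 of 6 (−0.69), among sensing and checkpoint genes 5 of 8 (−0.62), in the Fanconi anemia pathway 2 of 3 (−0.46) and in homologous recombination 1 of 4 (0.11). Counted as calls over genes and days, mismatch repair had 11 calls lower of 15, base excision repair 25 of 50, nucleotide excision repair 16 of 35 and homologous recombination 0 of 20. Of all genes 12.0% to 19.8% were called lower at a given day, and at such shares few of 20 would be called. The 11 calls of mismatch repair include those of Msh3 at all 5 days, whose other detected probe rose. The pathways hold few genes each, and differences between them were not tested.

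Among the sensors, the members of the break-binding complex fell. Rad50, the coiled-coil ATPase that bridges broken ends (chr11:53463096-53463155), had levels of 1.12, 1.98 and 2.58 in the control mice (lowest, median and highest of 28) and of −0.17, 0.86 and 1.63 in the 90Sr-injected mice. It fell by 1.19 on the log2 scale (SE 0.0982, limma adjusted p = 1.51e-15), and every 90Sr-injected mouse lay below every control mouse at all 5 days. Mre11a, the nuclease of the complex, had control levels of 0.47, 1.53 and 2.27 and 90Sr levels of −0.98, 0.21 and 1.31, an average change of −1.28 ± 0.137. Its daily changes were −1.06, −1.08, −0.80, −1.61 and −1.86, and it was called at days 25 and 30. At day 30 no 90Sr array was well above background, and the level was at least 1.89-fold lower. Nbn, the third component, was dim, being well above background on 5 control arrays and 0 90Sr arrays, and its average change of −0.40 (adjusted p = 0.00265) was −0.03 on the 75th percentile scale.

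Atm, the kinase that responds to double-strand breaks (chr9:53245871-53245930), fell, but near the limit of detection. Its control levels were −0.42, 0.42 and 1.01 and its 90Sr levels −1.76, −0.84 and 0.89, and its probe was well above background on 21 control arrays and on 1 90Sr array. The average change was −1.22 ± 0.135 (adjusted p = 1.88e-11), with calls at days 4, 7 and 30. In 90Sr groups without any array well above background only a bound holds, and this was at least 1.82-fold lower at day 4 and at least 1.21-fold at day 7. No bound above 1 was left at days 9 and 30, so the change called at day 30 has no firm size. A second probe of Atm gave −0.35 (SE 0.0796, adjusted p = 9.31e-05).

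For Atr, the kinase of the replication stress response, the 2 detected probes moved in opposite directions. The probe used rose by 0.95 (SE 0.136, adjusted p = 1.68e-08 in a fit of all detected probes), from control levels of 0.00, 1.65 and 3.37 to 1.75, 2.58 and 4.2. The probe on the RefSeq transcript fell by 1.56 (SE 0.111, adjusted p = 1.35e-17), with control levels of 1.83, 2.86 and 3.48, 90Sr levels of −0.20, 1.32 and 2.23, and every 90Sr-injected mouse below every control mouse at all 5 days. The direction for Atr is therefore not settled, and the cause of the disagreement was not tested. With each gene represented by its brightest RefSeq probe, 35 of the 46 genes fell and 6 rose, and the calls higher became 0 at day 7 and 1 at day 30.

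The checkpoint kinases did not fall. Chek1, which Atr activates to halt the cell cycle (chr9:36516068-36516127), had control levels of −1.30, −0.01 and 1.09 and 90Sr levels of −0.77, 0.69 and 1.70, and rose by 0.61 on average (SE 0.128, adjusted p = 3.01e-05). The change was larger at the late days, 0.08, 0.09, 0.43, 1.03 and 1.42 in order, and it differed between days (F test, adjusted p = 0.0237). The groups overlapped at each day. The call at day 30 was lost in 9 of the 12 fits that left out 1 array of that day, control mouse 4 among them, and over the 12 the change ran from 1.26 to 1.67. At day 25, 0 control arrays and 2 of 6 90Sr arrays were well above background, so that the change of that day has no firm size. At days 4 and 9 more control than 90Sr arrays were well above background, 4 against 2 and 4 against 1. The probe was well above background on 10 control and 9 90Sr arrays. Chek2, activated by Atm, rose by 0.43 ± 0.104, although fewer 90Sr than control arrays were well above background at each day after day 4.

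Trp53, which encodes the p53 transcription factor that checkpoint kinases stabilize (chr11:69404204-69404263), fell. It had control levels of 0.68, 1.56 and 2.32 and 90Sr levels of −0.88, 0.77 and 1.52, an average change of −0.84 ± 0.115 (adjusted p = 5.81e-09). The daily changes were −0.76, −1.26, −0.13, −0.88 and −1.17, with a call at day 7, where the groups did not overlap. At day 9 the control mean was 1.34 ± 0.580 (SD, n = 6) and the 90Sr mean 1.22 ± 0.0996 (SD, n = 6), a difference within the spread of the control mice.

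Of the genes that mark chromatin at breaks, the ubiquitin ligases changed most. Rnf8, which adds the first ubiquitin at breaks (chr17:29778519-29778578), had control levels of 2.13, 2.88 and 3.39 and 90Sr levels of 0.23, 1.27 and 2.53. At day 4 the 4 control mice had 2.64, 2.77, 3.14 and 2.67 and the 4 90Sr-injected mice 1.34, 0.92, 1.29 and 0.98. The groups did not overlap at any of the 5 days, and the average change was −1.5 ± 0.124 (adjusted p = 1.88e-15). Rnf168, which extends these ubiquitin marks (chr16:32300879-32300938), ran from 0.16 to 2.29 in the control mice (median 1.84) and from −1.57 to 2.99 in the 90Sr-injected mice (median −0.21), so that the highest 90Sr-injected mouse lay above every control mouse. It was called at days 4, 9, 25 and 30 and not at day 7, where the change was −0.67. At day 9 no 90Sr array was well above background, and it was at least 1.52-fold lower.

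The other chromatin genes moved less. H2afx, the histone H2AX that Atm phosphorylates (chr9:44144033-44144092), was among the brightest of the genes, with levels of 4.18, 4.85 and 5.40 in control mice and 3.13, 4.58 and 4.93 in 90Sr-injected mice. Its change was −0.27 ± 0.0801 (adjusted p = 0.00201), turned to 0.11 on the 75th percentile scale, and left the groups overlapping at every day but day 25 (−0.82). Mdc1, which reads phosphorylated H2AX, fell by 0.73 (SE 0.0795) without a 2-fold change at any day. Trp53bp1, the factor 53BP1 that favors end joining, had no average change (0.13, adjusted p = 0.0936), although its effect differed between days as described further on.

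All 6 measured end-joining genes fell on the array median scale, by 0.25 to 1.25, and 3 of them passed on the 75th percentile scale. Dclre1c, the nuclease Artemis that opens hairpin ends (chr2:3371015-3371074), fell from control levels of 0.72, 1.43 and 2.60 to 90Sr levels of −1.65, 0.40 and 1.47. The change was −1.25 ± 0.130 (adjusted p = 2.69e-12), called at all 5 days without overlap, although at day 9, with no 90Sr array well above background, it was at least 1.49-fold lower. A second detected probe gave −1.20 and another, dim one 0.24 (adjusted p = 0.290). Lig4, the ligase of the pathway (chr8:9970290-9970349), had control levels of −1.75, 0.00 and 1.19 and 90Sr levels of −2.42, −1.18 and 0.15, but was well above background on 17 control and 0 90Sr arrays. At day 4 it was at least 1.23-fold lower, and at the other days no bound above 1 could be given.

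The subunits of Ku, the ring that binds DNA ends, fell by different amounts, although their ratio passed a test at day 30 only. Xrcc5, the Ku80 subunit, fell by 0.90 (SE 0.169), and Xrcc6, the Ku70 subunit, by 0.36 (SE 0.0625), the latter turning to 0.02 on the 75th percentile scale. Nhej1 (XLF) fell by 0.47 (SE 0.0708), or by 0.10 on the 75th percentile scale, where it no longer passed (adjusted p = 0.156). Xrcc4, the scaffold of Lig4, was −0.25 ± 0.118 with an adjusted p of 0.0435 and turned to 0.12 on the 75th percentile scale.

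Prkdc, the DNA-dependent protein kinase that Ku recruits (chr16:15839317-15841922), just missed the filter, with 26.8% of arrays flagged. It was well above background on 21 of 28 control arrays and on 0 of 28 90Sr arrays. Control levels were −0.67, 0.45 and 1.04, 90Sr levels −1.66, −1.05 and −0.24, and the groups did not overlap at days 4, 7, 9 and 25. With the 90Sr groups below detection, it was at least 1.68-fold lower at day 4 and at least 1.15-fold lower at day 7, and no bound above 1 was left at the other days.

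The genes of homologous recombination, the route used mostly by dividing cells, had no calls at any day. Rad52, which anneals single strands (chr6:119872539-119872598), was the 1 gene that fell, by 0.67 (SE 0.0709, adjusted p = 4.02e-12), from control levels of 0.32, 1.16 and 1.56 to 90Sr levels of −0.06, 0.42 and 0.83. The groups did not overlap at days 4, 7 and 25. The helicase gene Blm rose by 0.23 (SE 0.0800, adjusted p = 0.00722), from control levels of 1.34, 1.83 and 2.45 to 1.5, 2.03 and 2.93, and its day 4 change was −0.28. The helicase gene Wrn (0.00 ± 0.176) and Brca2 (0.22 ± 0.121), which loads the recombinase onto DNA, did not pass. On the 75th percentile scale these changes were 0.38 and 0.60 and both passed (adjusted p = 0.0421 and 1.23e-05).

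Of the 7 recombination genes, 3 could not be measured. Brca1, which directs breaks to recombination (chr11:101359283-101363319), was well above background on 1 control and 0 90Sr arrays. Its signals of −3.01, −2.26 and −0.60 in control mice and −2.49, −1.42 and −0.46 in 90Sr-injected mice are those of a spot at background. Rad54l was well above background on no array and Xrcc3 on 1 control and 3 90Sr arrays.

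Base excision and single-strand break repair had the most negative median change of the pathways with more than 3 measured genes. Parp1 (chr1:182530341-182530639) had levels of 3.48, 3.55, 3.86 and 3.35 in the 4 control mice of day 4 and of 2.05, 1.17, 1.84 and 1.13 in the 4 90Sr-injected mice. Over all days the control levels were 2.06, 3.53 and 4.28 and the 90Sr levels −0.34, 1.63 and 2.95, without overlap at any day. The daily changes of −2.02, −1.74, −1.98, −2.10 and −1.67 did not differ by the F test (adjusted p = 0.891). Parp2, its relative (chr14:51439134-51439365), had control levels of −1.54, 1.36 and 1.70 and 90Sr levels of −1.26, −0.29 and 0.71. It was well above background on 26 control and 0 90Sr arrays and was at least 2.56-, 1.98-, 1.57- and 1.68-fold lower at days 4, 7, 9 and 25. At day 30 the control mean was 0.18 ± 0.947 (SD, n = 6), and no bound above 1 was left.

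Apex1, the endonuclease that cuts at sites without a base (chr14:51546483-51546542), fell by 1.27 (SE 0.105, adjusted p = 1.60e-15). Its control levels were 2.22, 3.18 and 3.70 and its 90Sr levels 0.64, 1.93 and 2.58, without overlap at all 5 days. The polymerase gene Polb fell by 0.92 (SE 0.112), and Xrcc1, the scaffold of single-strand break repair, by 0.59 (SE 0.0790) and by more than 2-fold at day 30 (−1.03). The ligase gene Lig3, partner of Xrcc1, showed −0.01 ± 0.107 on a probe well above background on 4 arrays. A brighter probe of Lig3 that failed the filter gave −1.67, so that Lig3 is not settled.

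The glycosylases, which cut out single damaged bases, did not move together. Mutyh, which removes adenine opposite oxidized guanine (chr4:116491926-116491985), had control levels of 1.17, 1.75 and 2.66 and 90Sr levels of −0.73, 0.37 and 1.98 and fell by 1.45 (SE 0.118). Its second probe gave −0.23 (adjusted p = 0.0731). Ogg1, which removes oxidized guanine itself, fell by 0.80 (SE 0.0995) and was called at day 25 (−1.5).

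Neil1, which removes oxidized pyrimidines, fell by 1.37 (SE 0.118) on the probe used, from control levels of 1.66, 2.88 and 3.36 to 0.54, 1.49 and 2.70. On the probe to its RefSeq transcript the change was −0.01 (SE 0.176, adjusted p = 0.966). Ung, which removes uracil, rose by 0.56 (SE 0.101, adjusted p = 2.11e-06), from control levels of 6.86, 7.78 and 8.59 to 7.34, 8.31 and 9.30. Its probe, with the GT repeat shown above, shares runs of 16 bases with probes of 107 other genes, and how much of its signal comes from Ung was not tested. Of the other 45 probes used, 43 share no such run with a probe of another gene and 2, of Atm and Rad52, share one with a single gene.

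In nucleotide excision repair, which removes bulky lesions, the helicase and nuclease genes fell. Ercc2 (XPD) and Ercc3 (XPB) encode helicases of the transcription factor TFIIH that open the DNA around the lesion. Ercc2 (chr7:19980982-19981041) had control levels of 1.88, 2.77 and 3.24 and 90Sr levels of −0.33, 1.27 and 2.39, a change of −1.48 ± 0.101 with the smallest adjusted p of the measured genes (3.62e-18), and no overlap at any day. Ercc3 had control levels of 0.48, 1.40 and 1.93 and 90Sr levels of −1.65, −0.36 and 0.95, also without overlap at any day, a change of −1.56 ± 0.138. Its 90Sr groups were below detection at days 9 and 30, with bounds of at least 1.27- and 1.46-fold lower.

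Ercc4 (XPF) and Ercc1 together form the nuclease that cuts on the 5′ side. Ercc4 (chr16:13148749-13148808) had control levels of 2.06, 2.93 and 3.48 and 90Sr levels of −0.89, 1.33 and 2.48, without overlap at any day. Ercc1 fell by 0.66 (SE 0.116), with control levels of −0.32, 1.73 and 2.08 and 90Sr levels of 0.25, 0.91 and 2.41. Ercc5 (XPG), which cuts on the 3′ side, was −0.34 ± 0.0868, turning to 0.03 on the 75th percentile scale. Ercc6, which acts where RNA polymerase stalls, was well above background on no array.

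The damage recognition genes Xpa and Xpc moved apart. Xpc, which finds distorted DNA across the genome, fell by 0.76 (SE 0.106) and was called at day 25 (−1.01). Xpa, which verifies the lesion (chr4:46188146-46188205), was bright, with levels of 4.19, 4.77 and 5.30 in control mice and 4.58, 5.16 and 5.66 in 90Sr-injected mice. It rose by 0.29 (SE 0.0647, adjusted p = 8.48e-05), its second probe by 0.39 (SE 0.0576). The groups overlapped at each day.

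All of the measured mismatch repair genes fell on the probes used. Msh6, which recognizes single mismatches (chr17:88390143-88390202), had control levels of 2.93, 3.76 and 4.19 and 90Sr levels of 1.95, 2.62 and 3.38, a change of −1.03 ± 0.0825 (adjusted p = 5.92e-16), and was well above background on every array. Pms2, which cuts the strand to be corrected (chr5:144692034-144692093), fell by 1.23 (SE 0.137), from control levels of 0.68, 1.77 and 2.42 to −1.12, 0.54 and 1.84. Msh3, which recognizes small loops, fell on the probe used from control levels of 1.79, 2.90 and 3.43 to −0.35, 1.24 and 2.24, without overlap at any day. Its second probe rose by 0.60 (SE 0.136, adjusted p = 8.88e-05), from control levels of −0.12, 1.04 and 1.69 to −0.79, 1.66 and 2.61. The direction for Msh3 is thus that of 1 of its 2 detected probes.

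**Figure D3:**
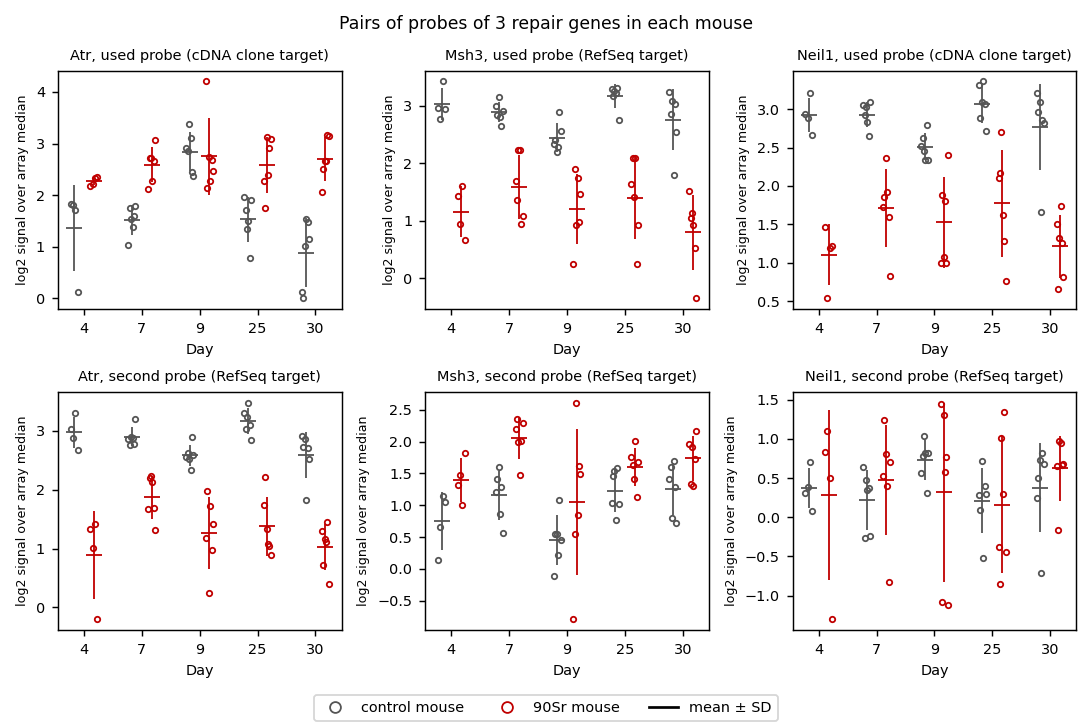
Level of 2 probes each of Atr, Msh3 and Neil1 in every mouse, by day, as log2 signal over the array median; the upper row is the probe used and the lower row the second probe, circles are mice (grey control, red 90Sr) and bars the mean ± SD. For Atr the probe used rose by 0.95 on average and the second fell by 1.56, while for Msh3 the probe used fell by 1.63 and the second rose by 0.60.

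In the Fanconi anemia pathway, which clears cross-links, the measured genes went different ways. Fanca of the core complex (chr8:125792210-125792269) had control levels of 1.30, 2.50 and 3.3 and 90Sr levels of −0.56, 0.88 and 2.10 and fell by 1.59 (SE 0.140, adjusted p = 1.50e-14), called at all 5 days. Fancd2, which the core complex ubiquitinates (chr6:113541170-113541229), rose by 0.79 (SE 0.135, adjusted p = 9.00e-07), from control levels of −2.4, 0.02 and 1.07 to −0.12, 0.77 and 1.67, and was called at day 9 (1.12). It was well above background on 8 control and 11 90Sr arrays, and at day 25 on 0 control arrays, where it was at least 1.86-fold higher. Fancc was −0.46 ± 0.163 on a dim probe, or −0.08 on the 75th percentile scale. Fancg was well above background on 2 control arrays and 1 90Sr array.

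**Figure D4:**
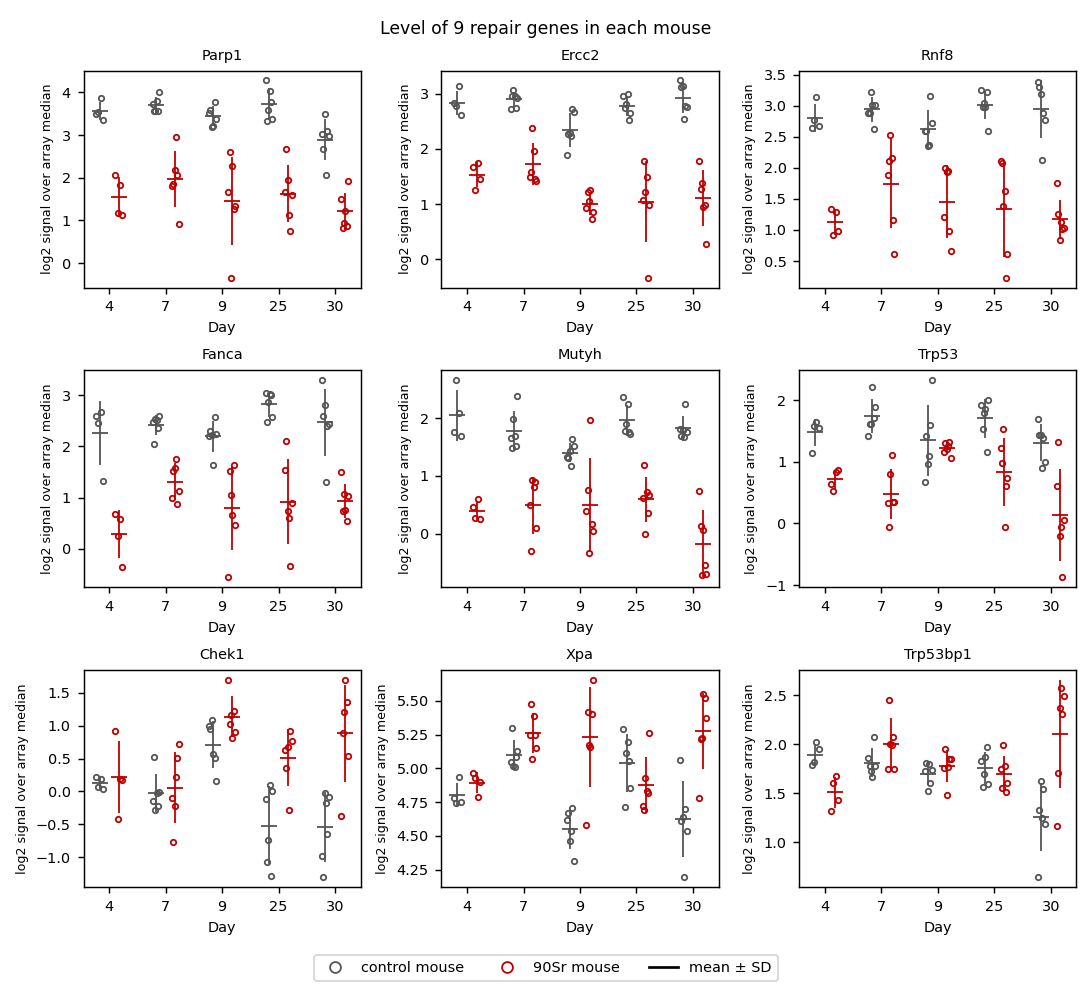
Level of 9 repair genes in every mouse by day, as log2 signal over the array median; circles are mice (grey control, red 90Sr) and bars the mean ± SD of 4 mice at day 4 and 6 at each later day. Parp1, Ercc2 and Rnf8 separate the groups at every day, and Trp53, Chek1 and Xpa overlap at day 9.

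Ratios of partner genes within the same mouse do not depend on the value each array is centered on. For 12 pairs with both genes measured, the log2 ratio was compared between groups at each day by a two-sided exact permutation test, and 21 of the 60 comparisons passed an adjusted p of 0.05, 12 with a lower ratio in 90Sr-injected mice and 9 with a higher one. With 4 mice against 4 the smallest p is 0.0286, which came to 0.0635 after adjustment, so no comparison of day 4 could pass here. Several pairs held a gene below detection in 90Sr groups (Nbn, Lig4, Lig3 and Parp2 at all 5 days, Atm at all but day 25, Ercc3 at days 9 and 30, Mre11a at day 30), where a ratio has no exact size, and the ratio of Atm over Atr depends on the probe of Atr.

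The ratio of Xpa over Xpc was higher in 90Sr-injected mice at each later day. It was 1.48 ± 0.0540 in control mice and 2.39 ± 0.365 in 90Sr-injected mice at day 4 (SD, n = 4), a difference of 0.91, and the differences at days 7, 9, 25 and 30 were 0.91, 1.39, 0.85 and 1.17 (exact permutation tests, adjusted p = 0.0130, 0.0130, 0.0130 and 0.0300). Every 90Sr-injected mouse had a higher ratio than every control mouse at days 4, 7, 9 and 25. In nucleotide excision repair the nuclease pair also moved apart, with Ercc1 over Ercc4 higher by 1.24, 0.12, 1.09, 0.87 and 1.68 in order of day and passing at days 25 and 30 (adjusted p = 0.0306 and 0.0371). The helicase pair did not: Ercc2 over Ercc3 differed by 0.12, 0.10, 0.38, 0.09 and −0.25, and none passed, with SDs between mice of 0.433 to 0.694 in the 90Sr groups.

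**Figure D5:**
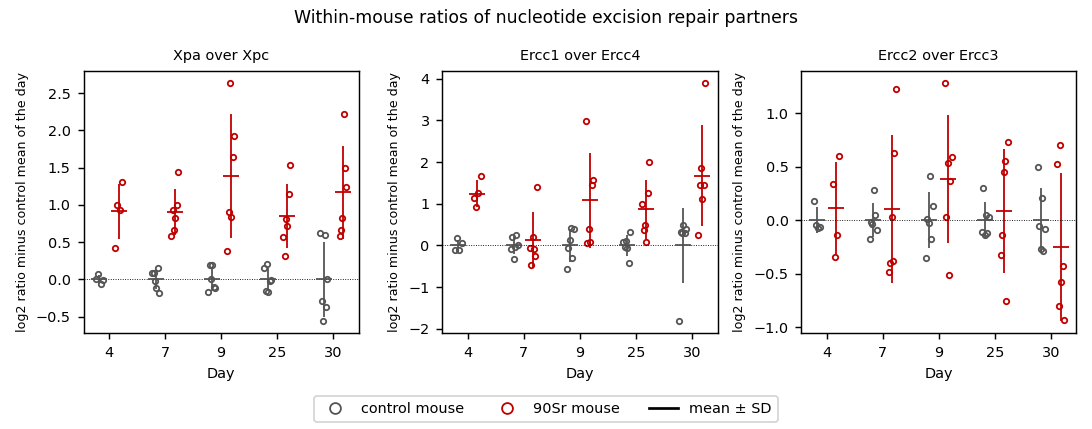
Log2 ratio of 3 pairs of nucleotide excision repair genes in every mouse, minus the mean of the control mice of that day; circles are mice (grey control, red 90Sr) and bars the mean ± SD. Xpa over Xpc lies above all control mice at days 4, 7, 9 and 25, Ercc1 over Ercc4 is higher on average with overlap at most days, and Ercc2 over Ercc3 scatters around 0.

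Msh3 over Msh6 was lower by 0.47 to 0.72 and passed at 4 days, but with the mean of both Msh3 probes it was higher at those days, by 0.38 to 0.63. Xrcc5 over Xrcc6 passed at day 30 (−1.03) and Rad50 over Mre11a at day 30 (0.83), where Mre11a was below detection on every 90Sr array. Chek1 over Chek2 passed at no day, with differences from −0.47 to 1.03. On normexp values 0 of the 60 ratios passed and on the authors' processed values 0 of 35, while with the brightest RefSeq probes 18 passed, Xpa over Xpc at 4 days among them.

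The 90Sr effect differed between days for 9 of the 46 genes (F test, adjusted p under 0.05), beside 22.8% of all genes. With slide as a fixed block, fitted to days 7 to 30 only, the effect differed for 0 genes, where without day 4 and without a block it differed for 6. Over all 5 days it differed for 1 with slide as a random block and for 1 with scan day as a block. Trp53bp1 (chr2:121024792-121024851) had the smallest p (0.00245), with control levels of 0.65, 1.73 and 2.08 and 90Sr levels of 1.16, 1.76 and 2.58. It was lower at day 4 by 0.38, where the groups did not overlap, and differed by 0.19, 0.08, −0.06 and 0.84 at the later days. The control mean of day 30 was 1.26 ± 0.346, against 1.70 to 1.89 at the other days. Xpa differed by 0.09, 0.17, 0.68, −0.16 and 0.65 (adjusted p = 0.00278), Ung by −0.20, 0.27, 0.94, 0.68 and 1.1 (0.0143) and Ercc5 (chr1:44237384-44237443) by −0.55, −0.09, 0.11, −0.28 and −0.91 (0.0201). Ercc5 had control levels of −0.28, 0.51 and 1.03 and 90Sr levels of −0.86, 0.14 and 0.78. For the other members of the 9, adjusted p was 0.00863 for Atr, 0.0237 for Chek1, 0.0382 for Xrcc4, 0.0411 for Lig4 and 0.0460 for Ogg1.

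Control mice themselves differed between days for 17 of the 46 genes, beside 56.3% of all genes, so that part of a difference between days lies in the control groups. The span of the 5 control means was widest for Atr (1.96), whose control means were 1.37, 1.52, 2.84, 1.53 and 0.89 while its 90Sr means stayed between 2.27 and 2.75. The next widest were Wrn (1.49), Parp2 (1.36), Fancd2 (1.30) and Chek1 (1.25). For Parp1, control means were 3.56, 3.71, 3.44, 3.73 and 2.89 and 90Sr means 1.55, 1.97, 1.47, 1.63 and 1.21.

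90Sr-injected mice varied more among themselves than control mice did. The median SD of the 46 genes was 0.242, 0.195, 0.293, 0.244 and 0.392 in the control groups in order of day and 0.302, 0.398, 0.484, 0.483 and 0.466 in the 90Sr groups. The SD was larger in the 90Sr group for 28, 39, 37, 39 and 24 of the 46, and for 47.8%, 75.6%, 70.5%, 77.2% and 53.5% of all genes.

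The promoters of genes that fell at every day and of Xpa, which rose, were compared by their letters. The 250 bases before the start of Parp1, Ercc2 and Xpa are shown, on GRCm38.p6 from RefSeq, with CCAAT and GGGCGG on either strand in capitals. They lie at chr1:180568641-180568890 (plus strand), chr7:19381767-19382016 (plus) and chr4:46196312-46196561 (minus).
Parp1: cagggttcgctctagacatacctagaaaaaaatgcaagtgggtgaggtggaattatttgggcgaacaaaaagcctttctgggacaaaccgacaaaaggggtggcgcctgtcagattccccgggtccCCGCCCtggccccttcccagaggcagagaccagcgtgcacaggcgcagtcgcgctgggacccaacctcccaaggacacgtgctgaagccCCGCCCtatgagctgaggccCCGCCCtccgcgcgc
Ercc2: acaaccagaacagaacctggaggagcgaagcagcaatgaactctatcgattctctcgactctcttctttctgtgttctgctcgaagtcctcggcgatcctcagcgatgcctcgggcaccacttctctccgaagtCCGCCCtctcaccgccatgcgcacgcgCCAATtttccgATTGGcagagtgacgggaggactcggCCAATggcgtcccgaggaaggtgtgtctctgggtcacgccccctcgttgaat
Xpa: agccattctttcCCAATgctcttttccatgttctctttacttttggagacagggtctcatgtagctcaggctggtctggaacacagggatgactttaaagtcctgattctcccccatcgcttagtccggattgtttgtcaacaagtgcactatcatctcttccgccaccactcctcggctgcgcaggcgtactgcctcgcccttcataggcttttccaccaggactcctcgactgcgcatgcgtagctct

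That of Parp1 holds GGGCGG 3 times and no CCAAT, that of Ercc2 holds CCAAT 3 times and GGGCGG 1 time, and that of Xpa holds CCAAT 1 time. In windows of 300 bases around the start, both strands searched, 43 members had a promoter in the table, and CCAAT was found in 25 of them (58.1%), where 37.8% of all 27025 promoters hold it. GGGCGG was found in 30 (69.8%) beside 35.6%, CCGGAAG in 9 (20.9%) beside 9.08%, TTTNGCGC in 3 (6.98%) beside 1.38% and TATAAA in 4 (9.30%) beside 14.1%. Of the 29 genes that fell and had a promoter in the table, 19 held CCAAT and 22 GGGCGG, and of the 6 that rose, 3 and 3. None of these motifs contains another, and a match is a description of the sequence only.

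Other genes of the same pathways, 108 on the array of 111 listed, moved in the same direction on the whole. Of the 91 measured, 57 fell and 20 rose on average, with a median change of −0.65, or −0.27 on the 75th percentile scale, where 48 fell and 34 rose. All 8 of the other sensing and checkpoint genes measured fell, with a median of −1.36, while the other homologous recombination genes went both ways: 8 of 18 were lower and 6 higher, from −1.25 for Slx4, a scaffold of nucleases, to 1.04 for Eme1, with a median of −0.05. The other end-joining genes had a median of −0.87 (7 of 8 lower) and the translesion synthesis and direct reversal genes of −0.85 (6 of 9 lower). The largest falls were those of Pold1, the catalytic subunit of polymerase delta (−1.81), Atrip, the partner of Atr (−1.76), and Rif1, which protects broken ends (−1.67). The largest rises were those of Eme1, part of a junction-cutting nuclease (1.04), and Cdk7, the kinase of TFIIH (0.97).

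Markers of blood cell types moved in both directions. Of the B cell markers 13 of 14 fell, with a median of −2.17, and their summed level was 907.5 to 2094 in control mice and 176.3 to 837.1 in 90Sr-injected mice. T cell markers fell for 12 of 15 (median −0.37), NK cell markers for 6 of 8 (−0.67), neutrophil markers for 6 of 10 (−0.58) and monocyte markers for 4 of 7 (−0.63). Red cell precursor markers rose for 12 of 12 (median 0.82), with a summed level of 19480 to 46480 in control mice and 33850 to 74400 in 90Sr-injected mice, and platelet markers for 6 of 9 (0.23). Genes of cycling cells were divided, 8 lower and 10 higher of 22, with a median of 0.10. These counts are on the array median scale. On the 75th percentile scale, 7 T cell markers were lower and 5 higher (median 0.00). For NK cell, neutrophil and monocyte markers the numbers were 5 and 2, 3 and 1, and 3 and 3. There 12 B cell markers were lower and 1 higher, and 12 red cell precursor and 9 platelet markers were higher. After quantile normalization 1 platelet marker was higher and 2 were lower (median −0.07). The part of these cell types in the changes of the repair genes was not tested.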

How the data were processed

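Blood RNA of 56 mice was labeled with Cy3 and hybridized to one-color Agilent whole mouse genome arrays. The authors deposited the processed signal of each spot as an intensity on a linear scale, written by Feature Extraction, which had subtracted the background but had not scaled the arrays to each other, together with mean and background signals and flags for each spot (version 11.5.1.1 in the file headers, 10.7 in the submitters' processing notes). The authors also deposited log2 values of their own processing, with 14208 entries of which 14162 matched probes, 34196 missing values and column medians of 4.32 to 5.09; within an array these differ from the log2 signal by nearly a constant (all but the outermost percentiles of the differences spanned at most 0.114), so that their scale is log2 while the centering between arrays stays unknown. It served as an alternative. The deposited flags are other columns than intensity and were used to filter.

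From the intensities, log2 of the processed signal minus the array's median over spots that are not controls was computed. Probes flagged on 25% or more of arrays, as non-uniform or as not above background, were left out, which left 23324 probes of 18802 genes, and the probe of highest mean represented a gene. Gene names and mm9 positions are those of the array files. Each day was fitted by itself, and 1 fit of all 10 groups gave the average of the 5 daily differences, the F test of differences between days and that between control groups, in R 4.3.3 with limma 3.58.1 (lmFit and eBayes) and statmod 1.5.0. A call needed an unadjusted p under 0.001, as in the methods, and at least a 2-fold change; other tests passed at a Benjamini-Hochberg adjusted p under 0.05 over all genes. The methods' filter on variation was run only as an alternative, since it removes genes for changing little. Ratios of partner genes were tested by exact permutation over mice; 14 pairs were planned, and 12 pairs with both genes measured gave 60 comparisons. Where no array of a group was well above background, a fold is a bound: the brighter group's mean against, per array of the dim group, the probe's own signal or, where that is lower, the dimmest signal that still counted as well above background. The mean of the brighter group also takes in any of its arrays that were not well above background.

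Values by mouse are given for genes called at 3 or more days, for the gene of largest effect in each pathway, for up to 6 genes whose effect differed between days, and for Atm, Trp53, Chek1, Brca1 and H2afx, with ranges for some others. The members and all lists were chosen with earlier results of these data known. Lists are described by counts and medians, without a test. The steps were tested on simulated data. Promoters came from a RefSeq table on GRCm38.p6, matched by symbol; Ercc3, Fancd2, H2afx, Nbn, Polb, Prkdc, Rad50, Wrn and Xpc were not matched. Precision is limited by how many arrays a group has, and p-values measure the spread between mice of a group. Since most arrays lay on slides that held a single group, these p-values do not separate group from slide. Replicate numbers did not pair the mice throughout: the deviations of control and 90Sr arrays of the same number correlated between −0.279 and 0.326, over 0.1 in 8 of 28 pairs. At day 4, however, all 4 control arrays correlated best with the 90Sr array of their own number. The mean there was 0.178, against −0.0589 for other numbers. Alternatives were other scalings, background corrections, filters and probe choices, the authors' values, slide, scan day and replicate number as blocks, other thresholds, and each array left out in turn; the RefSeq probes and the fit without day 4 were added after the data were seen.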

Additional observations from a re-analysis of the deposited data

Results flagged for a closer look

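Of 280 groups of mice examined for 28 genes, 23 (8.21%) held a mouse whose distance to its nearest neighbor was an unusually large part of the range of its group by Dixon's test, where chance gives about 1 in 20. The 23 lay on 14 arrays. Control mouse 4 of day 30 was the lowest of its group for Rad50 (Dixon ratio 0.663), Mre11a (0.732), Lig4 (0.787), Rad52 (0.639), Neil1 (0.753), Ercc4 (0.701) and Pms2 (0.787), and this is the array with low B cell markers described above. 90Sr mouse 6 of day 7 was the lowest for Rad50 (0.665) and Ercc4 (0.629). Control mouse 4 of day 4 was the lowest for Atr (0.933, a level of 0.12 against a group median of 1.76) and for Fanca (0.845). 90Sr mouse 1 of day 9 was the highest for Atr (0.708) and the lowest for Lig4 (0.659).

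The remaining mice stood apart for 1 gene of a day each. The ratios were 0.87, 0.646 and 0.823 for Dclre1c in the 90Sr groups of days 4, 9 and 30, each a low mouse, and 0.904 for Rad52 in the 90Sr group of day 4. They were 0.651 for Chek1 among day 7 controls, 0.681 for H2afx among day 9 controls, and 0.812 for Ung and 0.753 for Mutyh among day 30 controls, each a high mouse. Ercc5 had a low mouse in the 90Sr group of day 25 (0.752) and Msh3 one among day 25 controls (0.753).

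The effect of 90Sr differed between the 5 days by the F test of limma for Trp53bp1 (adjusted p = 0.00245), Xpa (0.00278), Atr (0.00863), Ung (0.0143), Ercc5 (0.0201), Chek1 (0.0237), Xrcc4 (0.0382), Lig4 (0.0411) and Ogg1 (0.0460). With slide as a fixed block, on days 7 to 30 only, 0 effects differed between days, against 6 without day 4 and without a block. With slide as a random block 1 differed and with scan day as a block 1. When single arrays were left out, Ogg1 no longer passed in 29 of 56 fits, Xrcc4 in 12, Lig4 in 10 and Ercc5 in 1. Among the 9, Atr and Ung rest on the probes described above, and Lig4 was not well above background on any 90Sr array.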

How the results depend on the processing

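Counts are out of 46 genes unless given otherwise. The 35 genes lower on average became 22 (of 27 genes measured) when probes had to be well above background on 75% of arrays, and the 7 higher became 4 there, 11 on the 75th percentile scale, 2 after normexp and 3 (of 36) in the authors' values. Calls by day, 18, 16, 12, 22 and 22, became 11 at day 4 and 5 at day 7 on the 75th percentile scale and also with centering on probes past the filter, 8 at day 7 and 14 at day 25 after quantile normalization, 0 at each day after normexp, 11, 7 and 13 (of 27) at days 4, 9 and 30 with the stricter filter, 10 at day 7 with the mean of a gene's probes, 3, 0 and 1 at days 9, 25 and 30 with slide as a fixed block, 7 at day 30 with scan day as a block, and 31, 32, 25, 35 and 34 at an adjusted p under 0.05 with no minimum change. Effects differing between days, 9, became 0 after normexp, 3 (of 36) in the authors' values and 5 (of 36) with the variation filter. They became 0 with slide fixed (days 7 to 30 only), 1 with slide random and 1 with scan day. Control differences between days, 17, became 3 after normexp, 9 (of 36) in the authors' values, 11 (of 27) with the stricter filter and 10 with slide random. Partner ratios, 21, became 0 after normexp and 0 (of 35) in the authors' values. Leaving out each array in turn gave 34 to 35 lower and 7 to 8 higher genes, 16 to 19, 10 to 17, 9 to 12, 19 to 26 and 19 to 25 calls by day, 6 to 12 effects differing between days, 15 to 20 control differences and 19 to 23 ratios. The 10 at day 7, against 16, came without 90Sr mouse 6. With the replicate block, in spite of numbers that did not pair the mice throughout, 18, 16, 8, 22 and 22 genes were called, 34 fell and 7 rose, and 10 effects differed between days.

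Changes that reversed were as follows. On the 75th percentile scale H2afx was 0.11, Xrcc4 0.12, Xrcc6 0.0172, Wrn 0.38, Lig3 0.37 and Ercc5 0.0344, with centering on probes past the filter H2afx 0.0666, Xrcc4 0.0825 and Lig3 0.33, and after quantile normalization Xrcc4 0.0315. Atr was −2.09, −1.02, −1.79 and −1.57 at days 4, 7, 25 and 30 and −1.56 on average with RefSeq probes, −2.10, −1.06, −1.74 and −1.86 and −1.64 in the authors' values, −0.66 at day 7, −0.30 at day 30 and −0.53 on average after normexp, and −0.30 on average with the mean of probes. Atm over Atr turned to 0.72 and 0.24 at days 25 and 30 with RefSeq probes, 0.85 and 0.11 in the authors' values, and 0.44, 0.23 and 0.19 at days 7, 25 and 30 after normexp. Neil1 was 0.25 at day 7 and 0.25 at day 30 with RefSeq probes. Msh3 over Msh6 was 0.63, 0.38, 0.48 and 0.50 at days 7 to 30 with the mean of probes and 0.16 at day 7 after normexp, where Xrcc4 over Lig4 was −0.15 at day 7 and Xrcc1 over Lig3 0.0441 at day 25. For Atr, Neil1 and Msh3 another probe enters by construction; otherwise the cause was not tested.

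Dim probes limit the sizes: 24 of the 35 genes that fell were well above background on some array of both groups at all 5 days, and for the others a fold at some day is a bound or cannot be given.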
